A study of Mus musculus with 25 samples.

Results

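The comparison described here is that of small interfering RNA (siRNA) against BLM (siBLM) with siRNA against luciferase (siLuciferase), the control RNA, in mouse embryonic stem cells that received Tus. All rows of the junction tables of these groups were taken, 878 for siBLM and 1181 for siLuciferase, which is 2059 of the 11867 junctions in the 10 groups of the series. Both groups carry the genotype that the labels give as BRCA1flox/exon11, called BRCA1flox here, and a 4-kb reporter cassette with a single GFP unit in the ROSA26 locus, and were grown on mouse embryonic fibroblast feeders. Both were transfected with Tus, the siRNA and the bait nuclease, a Cas9 complex with a guide RNA that cuts 30 kb from the cassette, and DNA was collected 48 h later. The labels list 2 samples per group. The tables pool them, and each was split by the sequencing run in the read name, which gave 2 libraries per group, in runs called C and D. Junctions report which DNA was joined to the bait. They do not measure how much BLM remained, so the depletion itself was not checked here.

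Tus is a bacterial protein that binds Ter elements and blocks replication forks that arrive from one side, so a Tus/Ter array places a fork barrier at a chosen site in a mammalian chromosome. BLM is a RecQ helicase that unwinds and dissolves joined DNA molecules during homologous recombination, takes part in resection of broken ends and acts at stalled forks, and its loss raises exchange between sister chromatids. BRCA1, which loads the recombination machinery, is the gene the series is about, and its title concerns tandem duplications that form by microhomology at Tus/Ter. Microhomology is a short run of bases that both joined ends share. The assay, known as LAM-HTGTS, amplifies from a primer beside the bait break and so captures DNA ends that were ligated to it, with 1 row per junction giving the position and orientation of the joined, or prey, DNA.

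The sequences that bear on these joins are the intact end of the bait and the Ter element. Both were read from the deposited reads, and the capitals mark the element that Tus binds. Array joins link the bait end, mostly after loss of bases, to Ter elements or to the DNA around them.
Bait end: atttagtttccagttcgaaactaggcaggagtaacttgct
Ter element: AATAAGTATGTTGTAACTAAAGT

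The cassette is numbered from 1 to 3928 in the reference of the deposited tables, and all positions here refer to it and to no genome build. EGFP starts at 2636 and its stop codon ends at 3605, with the array placed inside it. Ter 1 to Ter 6 are 23 bp each and begin at 3048, 3076, 3104, 3166, 3194 and 3222. The site of the homing endonuclease I-SceI follows at 3260 to 3277. The array window, from 3024 to 3277, is made largely of a pair of identical 116-bp copies that hold 3 Ter elements each. A join is called leftward where the prey ran from the junction toward position 1 and rightward where it ran toward position 3928. The cassette body is everything up to the last XbaI site at 3618, and the polyA region lies beyond it. With the control that the labels call EV, in BRCA1del cells with siRNA against FANCM, which was not paired with these groups, 5 of 468 junctions lay in the body and 1 in the array, so nearly all junctions without Tus or I-SceI were polyA joins.

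The siBLM libraries held 617 junctions in run C and 261 in run D, and the siLuciferase libraries held 933 and 248. No read sequence occurred more than once in a library. The same barcode marked both runs of a group, so it was checked whether the runs repeat one library. Body joins with equal position, strand and both read ends were shared 2 times between the siBLM runs and 0 times between the siLuciferase runs, out of 420 and 195 joins and of 721 and 216 joins. That is 0.244 shared joins per 10000 pairs for siBLM, and an upper quartile of 0.0769 over 192 pairs of libraries from different groups. The siBLM value was above that quartile. The labels do not state whether a join read in both runs was listed once, so few shared joins cannot show that the runs are separate libraries. The runs of a group were treated as libraries on the read names alone. Nothing in the labels says whether they came from separate cultures. Tests on pooled junctions and their intervals cover counting error only, and an exact permutation over 2 libraries against 2 cannot go below p = 0.333.

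Joins that ran rightward from the Ter array were more frequent with siBLM. Of the array joins, 25 of 279 in run C and 11 of 143 in run D ran rightward with siBLM, or 8.96% and 7.69%. With siLuciferase the values were 9 of 491 and 2 of 156, or 1.83% and 1.28%. Both siBLM libraries lay above both siLuciferase libraries. The group means were 8.33% ± 0.897 (SD, n = 2 libraries) and 1.56% ± 0.390 (SD, n = 2 libraries). Pooled, 8.53% against 1.70% is a difference of 6.83 percentage points (Newcombe 95% interval 4.18 to 9.97), with an adjusted p = 2.1e-06 by Fisher's exact test over the 14 measures compared. The exact permutation over libraries gave p = 0.333, the smallest it can give. Within run D alone the difference was 6.41 points (interval 1.73 to 12), with an unadjusted p = 0.00869 and an adjusted p = 0.0608 by Fisher's exact test. Where only reads with 20 bp or more of unique sequence past the array were taken, 4.55% with siBLM and 1.28% with siLuciferase ran rightward, a difference of 3.27 points with an adjusted p = 0.0473 by Fisher's exact test.

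**Figure D1:**
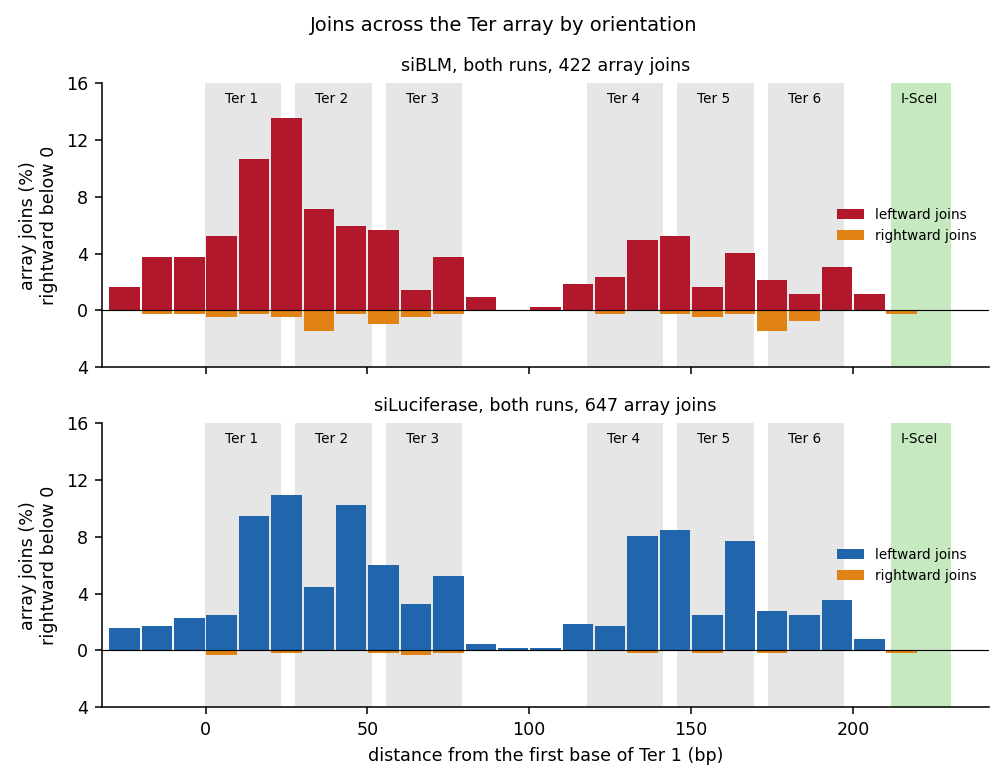
Joins in 10-bp bins across the Ter array, as a share of all array joins (%), against the distance from the first base of Ter 1 (bp). Leftward joins are drawn above 0 and rightward joins below it, for siBLM (422 array joins) and siLuciferase (647), both runs pooled. The rightward bars are taller with siBLM, 36 joins against 11, and lie in both copies of the repeat.

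The rightward joins of siBLM were spread along the array. The 36 joins fell at 32 distinct positions, from 3033 to 3266, with a median of 3111.5. By element, 21 lay at or before the end of Ter 3, 1 between Ter 3 and Ter 5, 13 from Ter 5 to Ter 6 and 1 beyond Ter 6. Of these, 13 were uniquely placed, so the copy of the repeat is uncertain for the rest. The 11 rightward joins of siLuciferase were at 3049, 3051, 3070, 3105, 3108, 3127, 3178, 3198 and 3262 in run C and at 3111 and 3227 in run D, and 5 were uniquely placed. Among the rightward joins, microhomology of at least 4 bp was found in 11 of 36 with siBLM (30.6%, Wilson 95% interval 18.0 to 46.9) and in 2 of 11 with siLuciferase (18.2%, interval 5.14 to 47.7). The leftward array joins had it in 12.5% and 12%. An insertion was found in 11 of 36 rightward joins with siBLM and in 2 of 11 with siLuciferase. These small sets are given as a description.

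Left of the array no difference in orientation was detectable. There, 53 of 163 joins ran rightward with siBLM (32.5%) and 84 of 279 with siLuciferase (30.1%). The difference of 2.41 points had an interval from -6.35 to 11.5 and an adjusted p = 0.695 by Fisher's exact test. By library the shares were 34.8% and 27.1% with siBLM and 31.4% and 25% with siLuciferase, so the groups overlapped. In the polyA region, 112 of 262 joins ran rightward with siBLM and 93 of 243 with siLuciferase, which was not tested.

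The cassette body took a smaller part of the junctions with siBLM. It held 420 of 617 junctions in run C (68.1%) and 196 of 261 in run D (75.1%) with siBLM. With siLuciferase it held 722 of 933 (77.4%) and 216 of 248 (87.1%). Each run showed the lower value in siBLM, with all 4 library values between 68.1% and 87.1%. Pooled, 70.2% against 79.4% is a difference of -9.26 points (interval -13.1 to -5.48), with an adjusted p = 1.3e-05 by Fisher's exact test and a permutation p = 0.333. Without the siBLM library of run C the difference was -4.33 points and the adjusted p = 0.290 by the same exact test. The other junctions were in the polyA region, 197 and 65 with siBLM and 211 and 32 with siLuciferase. The tables list cassette junctions only, so a lower body share and a higher polyA share cannot be told apart.

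**Figure D2:**
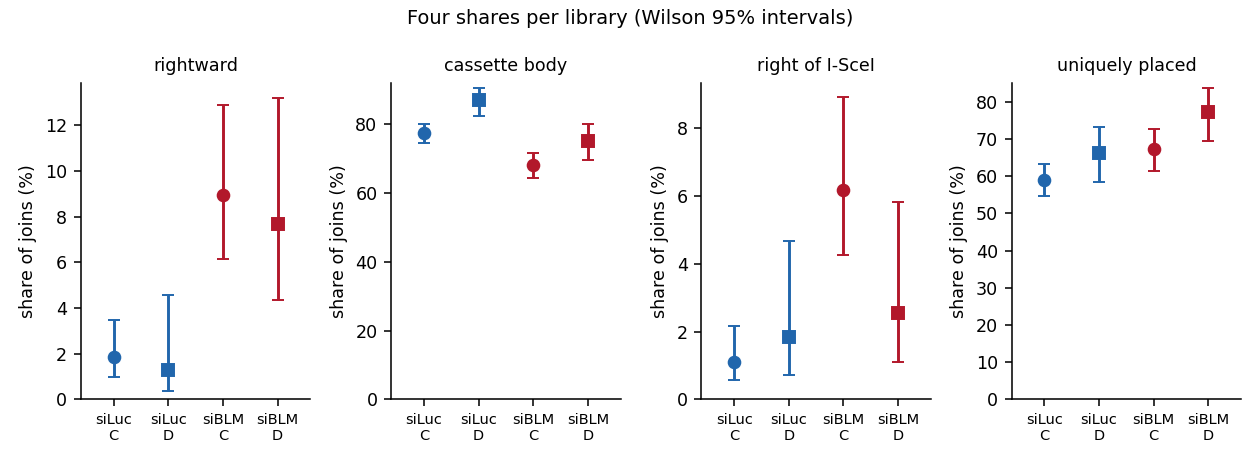
Shares (%) in each of the 4 libraries for rightward joins among array joins, body joins among all listed junctions, joins right of I-SceI among body joins, and uniquely placed joins among leftward array joins. Points are libraries of run C (circles) and run D (squares), and bars are Wilson 95% intervals, which cover counting error only. The siBLM libraries sit at 8.96% and 7.69% rightward against 1.83% and 1.28%, while the siBLM excess right of I-SceI is carried by run C, 6.19% against 2.55% in run D.

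To see where in the cassette the joins differed, the body was divided at the ends of the Ter elements, of the I-SceI site and of EGFP, and each stretch with at least 10 joins in one orientation was tested. Of 19 stretches, 2 passed at an adjusted p under 0.05, or 10.5%, and 4 had an unadjusted p under 0.05. Both that passed were the right part of EGFP, from 3278 to 3605, between the I-SceI site and the stop codon. Leftward joins there made up 22 of the siBLM body joins (3.57%) and 11 of the siLuciferase body joins (1.17%), with an adjusted p = 0.0178 by Fisher's exact test. Rightward joins there numbered 9 (1.46%) and 1 (0.107%), with an adjusted p = 0.0178 by the same exact test. Together these joins were 5.03% of the body joins with siBLM and 1.28% with siLuciferase, a difference of 3.75 points (interval 2.01 to 5.85) with an adjusted p = 9.6e-05 by Fisher's exact test. The 31 siBLM joins lay at 31 distinct positions from 3287 to 3601 with a median of 3391. Of those with a called structure, 22 of 30 with siBLM and 9 of 12 with siLuciferase had microhomology of at least 1 bp.

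This excess right of the I-SceI site was not seen in both runs. In run C, 26 of 420 siBLM body joins and 8 of 722 siLuciferase body joins lay there, or 6.19% and 1.11%. In run D the values were 5 of 196 and 4 of 216, or 2.55% and 1.85%, a difference of 0.699 points (interval -2.47 to 4.17) with an unadjusted p = 0.742 by Fisher's exact test. Without the siBLM library of run C the difference was 1.27 points with an adjusted p = 0.339 by Fisher's exact test, and without the siLuciferase library of run C it was 3.18 points with an adjusted p = 0.113. Without run C in both groups, 0 of 13 stretches passed by Fisher's exact test and 0 had an unadjusted p under 0.05. With each position and strand counted once per library, 0 of 19 passed by the same test and 3 had an unadjusted p under 0.05. Both orientations together, counted in that way, were 7.08% with siBLM and 2.18% with siLuciferase, a difference of 4.90 points with an adjusted p = 0.00160 by Fisher's exact test.

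Leftward joins in the array made up 386 of 616 body joins with siBLM and 636 of 938 with siLuciferase. Among the Ter elements, Ter 1 and Ter 2 took the most leftward joins. The left part of EGFP, a longer stretch from 2636 to 3023, held 74 leftward joins with siBLM (12% of body joins) and 145 with siLuciferase (15.5%). Ter 1 held 82 leftward joins with siBLM (13.3% of body joins) and 102 with siLuciferase (10.9%). Ter 2 held 79 (12.8%) and 118 (12.6%). The values ran from 4.55% to 6.66% in Ter 3, Ter 4 and Ter 5 and were 3.25% in Ter 6 with siBLM, and from 4.69% to 8.85% in these 4 elements with siLuciferase. None of the 6 elements passed in the whole data, with adjusted p from 0.118 for Ter 5 to 0.938 for Ter 2 by Fisher's exact test. In the 24 bp before Ter 1, leftward joins were 6.33% of body joins with siBLM and 3.84% with siLuciferase, at an adjusted p = 0.138 by Fisher's exact test. That stretch had 7.86% against 3.46% in run C and 3.06% against 5.09% in run D, so the runs differed in direction, and without run D it passed with an adjusted p = 0.0167 by Fisher's exact test. The gap after Ter 4 held 10 leftward joins with siBLM (1.62%) and 24 with siLuciferase (2.56%), at an adjusted p = 0.546 by Fisher's exact test. Where only array reads that reached unique sequence were taken, they numbered 0 and 10 (1.46%), at an adjusted p = 0.0343 by the same exact test. That setting was chosen after seeing the data and leaves out reads too short to reach past the array.

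**Figure D3:**
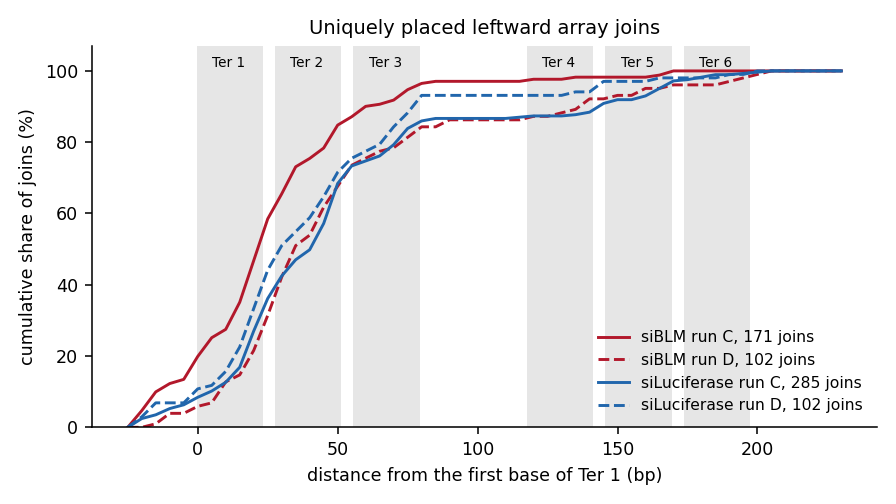
Cumulative share (%) of uniquely placed leftward array joins against the distance from the first base of Ter 1 (bp), with 1 line per library, solid for run C and dashed for run D. The siBLM library of run C rises earliest, and the siBLM library of run D lies close to the siLuciferase library of run C. Joins in the second copy of the repeat need longer reads to be included.

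The repeat sets a limit on where leftward joins can be placed. A leftward read can be assigned to a copy where it reaches unique sequence left of the array, which 273 of 386 siBLM reads (70.7%) and 387 of 636 siLuciferase reads (60.8%) did. By library the shares were 67.3% and 77.3% with siBLM and 59.1% and 66.2% with siLuciferase. The difference of 9.88 points (interval 3.86 to 15.7) had an adjusted p = 0.00528 by Fisher's exact test, and it did not pass in either run alone, with adjusted p = 0.0729 in run C and 0.137 in run D. Without the siLuciferase library of run C it was 4.49 points with an adjusted p = 0.454 by Fisher's exact test. Without the siBLM library of run D it was 6.47 points with an adjusted p = 0.155 by the same exact test. The median prey length was 89 bp in run C and 120 bp in run D with siBLM and 108 bp and 123 bp with siLuciferase. Of the reads that could not be assigned, the deposited positions put 99 of 113 with siBLM (87.6%) and 214 of 249 with siLuciferase (85.9%) in the second copy.

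A leftward join in the second copy is uniquely placed only where its read also crosses the first copy, so unique placement favours the first copy. The first copy held 93.0% of uniquely placed leftward joins with siBLM and 88.4% with siLuciferase. Over all leftward array joins the deposited positions gave 69.4% and 59.3%. Among the uniquely placed leftward joins, 250 of 273 with siBLM (91.6%) and 340 of 387 with siLuciferase (87.9%) lay at or before the end of Ter 3. The difference of 3.72 points had an interval from -1.13 to 8.27 and an adjusted p = 0.368 by Fisher's exact test. The runs went opposite ways. In run C the shares were 96.5% with siBLM and 86.0% with siLuciferase, a difference of 10.5 points (adjusted p = 0.00062 by Fisher's exact test within that run). In run D they were 83.3% and 93.1%, a difference of -9.80 points (unadjusted p = 0.0487 by the same exact test). The median position was 3070 in run C and 3082.5 in run D with siBLM, and 3089 and 3077 with siLuciferase. The siBLM runs differed from each other by more than the pooled groups did, with an adjusted p = 0.00296 by Fisher's exact test between them. Among uniquely placed joins, no difference in leftward position between siBLM and siLuciferase that held in both runs was detectable.

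The most used positions were shared in part. With siBLM they were 3067 in Ter 1 (10 joins, against 8 with siLuciferase), 3070, the last base of Ter 1 (10 against 14), and 3077 in Ter 2 (9 against 6), all leftward. With siLuciferase they were 3188, the last base of Ter 4 (17 joins, against 5 with siBLM), 3070 again, and 3095 in Ter 2 (12 against 3). None of the 17 siLuciferase joins at 3188 was uniquely placed, and 3070 and 3188 are the same base of the repeat. In both copies this base held 15 of 386 leftward array joins with siBLM (3.89%) and 31 of 636 with siLuciferase (4.87%). Folded in this way, Ter 1 with Ter 4 held 31.9% of leftward array joins with siBLM and 29.1% with siLuciferase. Ter 2 with Ter 5 held 28.5% and 30.7%, and Ter 3 with Ter 6 held 12.4% and 16.8%.

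Within the element, the last base was the most used in both groups. Base 23, counted from the left end of the Ter sequence shown above, held 36 of the 281 leftward joins in Ter elements with siBLM (12.8%) and 61 of 487 with siLuciferase (12.5%). Base 18 came next, with 29 joins (10.3%) and 42 (8.62%). The median base was 16 in both siBLM libraries and 17 in both siLuciferase libraries. The lower quartile was base 6 and base 7 with siBLM in runs C and D and base 11 in both siLuciferase libraries. These values were not tested.

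**Figure D4:**
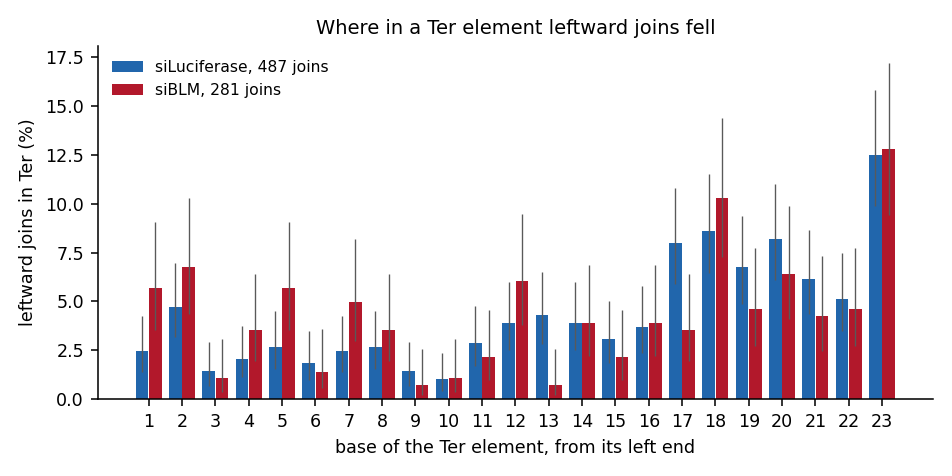
Share (%) of leftward joins in Ter elements that fell at each of the 23 bases of the element, counted from its left end and summed over the 6 elements, for siLuciferase (487 joins) and siBLM (281 joins), both runs pooled. Bars are shares and lines are Wilson 95% intervals. Base 23 is the highest in both groups, 12.8% with siBLM and 12.5% with siLuciferase.

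The structure of the array joins, read from 421 siBLM and 645 siLuciferase joins, gave no difference past the threshold in the 7 measures taken. Microhomology of at least 2 bp was found in 209 siBLM joins (49.6%) and 327 siLuciferase joins (50.7%). By library it was 44.8% in run C and 59.2% in run D with siBLM and 44.8% and 69.2% with siLuciferase. The difference of -1.05 points had an interval from -7.16 to 5.07 and an adjusted p = 0.812 by Fisher's exact test. Microhomology of at least 4 bp was found in 14.0% and 12.1%, a difference of 1.92 points (interval -2.14 to 6.23). Blunt joins, with neither shared nor inserted bases, were 8.08% and 9.15%, a difference of -1.07 points (interval -4.41 to 2.53). The median microhomology, where there was any, was 2 bp in all 4 libraries.

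Of the microhomologies of at least 4 bp, the most used lay in the 40 bait bases shown above and in Ter. These are shown with 1 read each, bait first, with the shared bases in capitals and 15 bases on either side. ACTT occurs once in the last 145 bases of the bait, 3 bases from its end, and it occurs 2 times in Ter when both strands are read. It was found in 13 siBLM and 25 siLuciferase joins, at 13 distinct positions. AGTT was found in 9 and 10 joins, TTTAGTT in 5 and 8, and GTAACT in 5 and 1.
ACTT at 3070, leftward: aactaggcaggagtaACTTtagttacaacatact
AGTT at 3065, leftward: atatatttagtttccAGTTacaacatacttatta
TTTAGTT at 3214, leftward: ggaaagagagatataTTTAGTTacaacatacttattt
GTAACT at 3116, rightward: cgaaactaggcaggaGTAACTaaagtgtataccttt
The first 3 use the strand of Ter that reads toward position 1, and the last uses the strand printed above. By run, ACTT joins numbered 6 and 7 with siBLM and 14 and 11 with siLuciferase, a use that was not tested.

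Inserted bases were found at 99 siBLM joins (23.5%) and 154 siLuciferase joins (23.9%), a difference of -0.361 points (interval -5.49 to 4.94). The runs differed more than the groups. Insertions made up 26.9% of joins in run C and 16.9% in run D with siBLM and 28.4% and 9.62% with siLuciferase. The difference between the siLuciferase runs had an adjusted p = 6.9e-06 by Fisher's exact test. Without the siLuciferase library of run C the difference between groups became 13.9 points (adjusted p = 0.00067), and that of microhomology of at least 2 bp became -19.6 points (adjusted p = 0.00022), both by Fisher's exact test. Reads whose first 60 bait bases had no error made up 84.0% and 86.6% of the siBLM libraries and 81.1% and 78.6% of the siLuciferase libraries in runs C and D, and the part of read errors in the difference between runs was not tested. Insertions of at least 5 bp were 11.6% and 9.77%. Of the insertions of at least 10 bp, 29 with siBLM and 32 with siLuciferase, a run of 10 bases matched the cassette in 4 and 7 and the bait in 2 and 4, and the others matched neither.

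**Figure D5:**
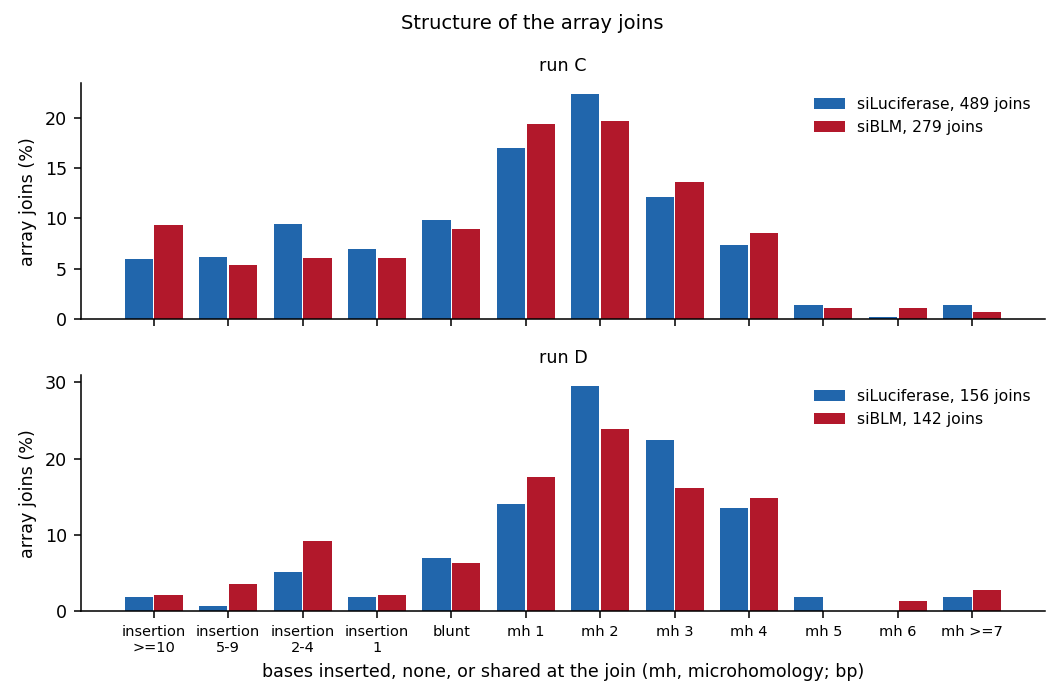
Structure of the array joins in runs C and D, as a share of joins with a called structure (%), by bases inserted at the join, blunt joins, and bases of microhomology (mh, bp), for siLuciferase and siBLM. Microhomology of 2 bp is the commonest class in all 4 libraries, and insertions are more frequent in run C than in run D in both groups.

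The bait end had lost bases in most joins. The median loss was 14 bp in run C and 9.50 bp in run D with siBLM and 13 bp and 16 bp with siLuciferase. A loss of at least 20 bp was found in 163 siBLM joins (38.7%) and 264 siLuciferase joins (40.9%), a difference of -2.21 points (interval -8.15 to 3.81). Intact bait ends were 7.13% and 4.19%, a difference of 2.94 points (interval 0.159 to 6.08) with an adjusted p = 0.141 by Fisher's exact test. By library they were 9.32% and 2.82% with siBLM and 4.29% and 3.85% with siLuciferase, so only the siBLM library of run C stood above the others. Without the siBLM library of run D the difference was 5.13 points with an adjusted p = 0.00884 by the same exact test.

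BRCA1del cells, in which the labels give the floxed allele as deleted (BRCA1del/exon11), were treated with the same siRNAs and have control libraries of their own. In runs C and D the rightward share of array joins there was 15.2% with siBLM and 10% with siLuciferase. By library it was 14.9% and 16% with siBLM and 7.78% and 13.8% with siLuciferase. The odds ratio of siBLM against siLuciferase in BRCA1flox was 3.20 times that in BRCA1del (95% interval 1.42 to 7.22), with an adjusted p = 0.0169 by a likelihood-ratio test in a binomial logistic model with run as a term. In percentage points the changes were nearer to each other, 6.83 and 5.18. The test did not pass in either run alone, with adjusted p = 0.144 without run D and 0.148 without run C, and an exact sign-flip over 2 runs cannot go below p = 0.5. The siLuciferase libraries of BRCA1flox, at 1.83% and 1.28%, were lower than those of BRCA1del.

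Over both runs, the drop in body share with siBLM was also larger in BRCA1flox, -9.26 points against -1.57 points in BRCA1del. In BRCA1del the body share was 61.6% with siBLM and 63.2% with siLuciferase. With all BRCA1del runs it was 67.4% and 65.5%, a difference of 1.87 points in the other direction. The BRCA1del runs went opposite ways, with 2.41 points in run C and -11.1 points in run D. In BRCA1flox the differences were -9.31 and -12.0 points, so in run D the genotypes were close. The ratio of odds ratios was 0.611 (interval 0.458 to 0.816) with an adjusted p = 0.00587 by the same binomial model, and without run C it was 0.734 with an adjusted p = 0.512. Joins right of the I-SceI site were 1.50% with siBLM and 2.31% with siLuciferase in BRCA1del. The ratio of odds ratios was 7.25 (interval 2.26 to 23.2) with an adjusted p = 0.00587 by the binomial model, and without run C it was 0.760 with an adjusted p = 0.928. Joins left of the array, as a share of leftward body joins, were 21.2% and 23.2% in BRCA1flox and 20% and 13.1% in BRCA1del. Here the ratio of odds ratios was 0.564 (interval 0.357 to 0.888) with an adjusted p = 0.0459 by the binomial model. In the binomial model it did not pass without run C (0.547, adjusted p = 0.424) or without run D (0.574, adjusted p = 0.140). For the share with microhomology of at least 2 bp, 39% and 40.9% in BRCA1del, the ratio of odds ratios was 0.905 (interval 0.617 to 1.33). The runs went opposite ways, with 0.316 without run C (adjusted p = 0.0243 by the binomial model) and 1.43 without run D.

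The groups with siRNA against BRCA1 or FANCM in BRCA1flox cells share the siLuciferase control libraries with siBLM, so their values are given side by side only. The rightward share of array joins was 8.28% and 11.7% in runs C and D with siRNA against BRCA1, and 4.72% and 9.73% in the same runs with siRNA against FANCM, which remodels stalled forks. The body share was 61.7% and 71.6% with siRNA against BRCA1 and 63.0% and 72.5% with siRNA against FANCM. Right of I-SceI the shares were 2.15% and 0.621%, and 1.99% and 2.07%.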

How the data were processed

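Junction tables (positions, strand and reads, 1 row per junction) were used as the authors deposited them. Per the submitters' processing notes, Bowtie2 and mm9 were used. Read filters and removal of duplicates by the authors are not stated in the labels. The deposited values are coordinates of another kind than counts, so junctions were counted here. A cassette sequence was assembled by a vote of the aligned reads, repeated 5 times. Reads lacked 1 base that the deposited coordinates have between the repeat copies, and structure was called on the read sequence. Bait and prey were extended from exact seeds of 10 and 12 bp, and structure was called for 1548 of 1554 body joins. The caller and Fisher's exact test of the stretches were checked on simulated data, and the binomial model was not.

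Shares were compared by Fisher's exact test with Benjamini-Hochberg adjustment over 14 measures, or over the stretches tested, with the run as a stratum as an alternative, and between genotypes by a binomial logistic model (Python 3.11.15, SciPy 1.17.1, statsmodels 0.14.6). Libraries are runs, since the pooled tables carry no replicate number, and 148 to 933 junctions per library limit the precision. Named positions and sequences were the 3 most used per group. Members, measures and lists were chosen with earlier results of these data known. No junctions outside the cassette were analysed here.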

Additional observations from a re-analysis of the deposited data

Results flagged for a closer look

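In 4 measures the effect of siBLM against siLuciferase differed between BRCA1flox and BRCA1del cells by a likelihood-ratio test of the genotype by siRNA term in a binomial logistic model over runs C and D, adjusted over 14 measures. For the rightward share of array joins, the odds ratio of siBLM in BRCA1flox was 3.20 times that in BRCA1del (adjusted p = 0.0169 by this binomial model). For the body share of all junctions the ratio was 0.611 (adjusted p = 0.00587 by the binomial model). For the part of leftward body joins that lay left of the array it was 0.564 (adjusted p = 0.0459 by the binomial model). For joins right of the I-SceI site among body joins it was 7.25 (adjusted p = 0.00587 by the binomial model). In each genotype the junctions come from 2 libraries per siRNA in these runs, and the tests cover counting error only. None of the 4 measures passed in run D alone. The rightward share and the part left of the array passed in neither run alone.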

How the results depend on the processing

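Of 216 alternatives run for 29 results, 187 kept the direction or stayed short of the threshold as before, and 29 did not. No paired analysis was possible because the pooled tables carry no replicate numbers. The sequencing run served as the replicate block instead, with which the rightward share differed by 6.92 points, the body share by -10, the share right of I-SceI by 3.86 and the uniquely placed share by 9.05, and it changed no call. Leaving out a library, or a run in both groups, gave ranges in percentage points of 5.99 to 7.26 for the rightward share, -16.9 to -4.33 for the body share, 0.699 to 5.08 for joins right of I-SceI and 4.49 to 16.4 for the uniquely placed share. For shares not called in the whole data the ranges were -19.6 to 8.46 for microhomology of at least 2 bp, -6.97 to 13.9 for insertions, -4.13 to 9.07 for insertions of at least 5 bp, -1.37 to 5.13 for intact bait ends and -9.80 to 10.5 for joins up to the end of Ter 3. Between genotypes, the ratios of odds ratios ranged from 2.53 to 5.35 for the rightward share, 0.563 to 0.734 for the body share, 0.316 to 1.43 for microhomology of at least 2 bp, 0.547 to 0.574 for joins left of the array and 0.760 to 11.9 for joins right of I-SceI. With all runs, the ratio for joins left of the array was 0.720 and no longer passed. It was then 2.99 for the rightward share, 0.534 for the body share and 4.62 for joins right of I-SceI.

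With each position and strand counted once per library, the uniquely placed share differed by 6.65 points and no longer passed, and 0 stretches passed, as given above. Without run C, 0 stretches passed, and the right part of EGFP had too few joins to be tested. Without run D, leftward joins in the right part of EGFP were 4.52% of body joins with siBLM and 1.11% with siLuciferase. Leftward joins in the spacer before Ter 1 were 7.86% and 3.46%. Rightward joins in the right part of EGFP then numbered 7 with siBLM and 0 with siLuciferase, too few to be tested. With only reads reaching unique sequence, intact bait ends differed by 5.34 points and passed. With all leftward array joins as the denominator, uniquely placed joins up to the end of Ter 3 differed by 11.3 points and passed. Reads whose copy of the repeat is uncertain count there in the denominator only. The difference in the uniquely placed share is therefore part of this value, which does not measure position alone. The settings with error-free bait reads, with leftward joins only and, for stretches, with uniquely placed reads were chosen after seeing the data. The last gave 3 stretches past the threshold, both from the whole data and leftward joins in the gap after Ter 4, which were fewer with siBLM. The causes were not tested. In run D, 143 to 156 array joins per library limit what could be detected.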
